A study of Arabidopsis thaliana with 18 samples.

Results

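The genes described here are 3 transporter genes measured in roots of Arabidopsis thaliana, AT2G26690, AT1G59740 and NRT2.5 (AT1G12940), each by the 1 probe set annotated to it among 22746 probe sets tested. The 3 genes were chosen from earlier results on these same arrays, in which the differences between the mutant lines and the wild type were already known. Those differences are therefore given as a description without a test. AT2G26690 is the gene called NRT1.4, annotated as NPF6.2, and AT1G59740 is annotated as NPF4.3.

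RNA came from roots of 6 genotypes with 3 arrays each, 18 arrays in all. Every plant grew in vitro for 8 days on 10 mM NH4NO3, which supplied nitrate and ammonium to all groups alike. The wild type is col, the Columbia accession. The other 5 lines are altered in NRT1.1 (CHL1), a root nitrate carrier that also acts as a nitrate sensor. The gene is known to be deleted in chl1-5 and to hold a point mutation in chl1-9, while the labels leave the lesion of chl1-12 undescribed. In T101A a threonine of the protein can no longer be phosphorylated, and in T101D its substitute mimics the phosphorylated state. The labels do not state in which background or from which promoter the T101A and T101D forms were expressed, how many independent lines stand behind each, or whether replicates were separate cultures.

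Plants take up nitrate through 2 families of proton-coupled carriers. The NPF family, to which NRT1.1 belongs, holds mostly low-affinity carriers, and its members also move peptides, glucosinolates or hormones. The NRT2 family holds high-affinity carriers that work when nitrate is scarce. NRT1.4 is known as a low-affinity nitrate carrier that influences how much nitrate is stored in the leaf petiole, whereas NRT2.5 is known as a high-affinity carrier whose transcript builds up during long nitrogen starvation. A transport role for AT1G59740 is not stated here. The annotation used here leaves 8730 probe sets unnamed and names none for NRT1.1, so the mutated gene is not analysed here.

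The deposited values are intensities on a linear scale, with the same trimmed mean on every array and array medians from 184.5 to 197.0. Differences are on the scale log2(intensity + 16), from limma fitted over all probe sets and all 18 arrays, and are given with their standard error. A probe set passed the threshold at a Benjamini-Hochberg adjusted p under 0.05. For the GAPDH control, 5′ over 3′ signal ran from 0.740 to 0.797 in col, 0.806 to 0.923 in chl1-5, 0.845 to 0.944 in T101A, 0.797 to 0.942 in T101D, 0.788 to 0.981 in chl1-12 and 0.729 to 0.828 in chl1-9. All chl1-5 and T101A arrays lay above col in this sign of RNA quality, and its part in the differences from col was not tested. Of the root markers listed, 6 of 14 had a named probe set. Their summed intensity was 4828 to 6000 in col and 6256 to 9779 in the lines. AT4G26010 was the largest part of this sum (mean 2258.0 in col). The 6 need not stand for the other root markers, which had no named probe set. Of the green shoot markers, 2 of 15 had one, and their sum, mostly RCA (rubisco activase), was 1448 to 2164 in col and 608 to 956 in T101D, with 1078 to 1879 in the other lines. No marker with a named probe set was at 0, and both kinds were present on every array.

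AT2G26690 was highest in the wild type. Its intensity was 318.8, 346.6 and 320.1 on the 3 col arrays. In chl1-5 it was 208.8, 187.3 and 173.9. In chl1-9 it was 143.1, 129.6 and 153.5. These groups lay wholly below col, and chl1-9 lay wholly below chl1-5 as well. In chl1-12 it was 264.0, 168.1 and 210.2. In T101A it was 280.6, 208.5 and 210.8, and in T101D it was 225.2, 165.8 and 196.9. These 3 lines also stayed below the lowest col array, although replicate 1 of chl1-12 and of T101A came closer to it than the other arrays did.

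The mean of AT2G26690 was 328.5 ± 15.7 (SD, n = 3) in col. It was 233.3 ± 41.0 in T101A, 214.1 ± 48.1 in chl1-12, 196.0 ± 29.7 in T101D, 190.0 ± 17.6 in chl1-5 and 142.1 ± 12.0 in chl1-9. In this order from high to low, col stood apart from its neighbour T101A, and chl1-5 stood apart from chl1-9. The neighbours in between, from T101A to chl1-5, had overlapping arrays. The difference from col was smallest in T101A (-0.48 ± 0.15, SE) and largest in chl1-9 (-1.13 ± 0.15). It was -0.60 in chl1-12, -0.71 in T101D and -0.74 in chl1-5, each with the same standard error. The mean in chl1-9 was 43.2% of that in col, and in T101A it was 71.0%.

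AT1G59740 was also highest in the wild type. Its intensity was 248.6, 265.8 and 304.8 in col. It was 162.2, 146.0 and 143.3 in chl1-5. It was 181.6, 147.1 and 151.5 in chl1-9. All arrays of both alleles lay below col, and the 2 alleles overlapped each other. In chl1-12 it was 181.4, 131.7 and 152.1. In T101A it was 187.4, 150.4 and 129.2, and in T101D it was 217.8, 189.2 and 171.9. T101D came nearest to the wild type, with its highest array still under the lowest col array.

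The mean of AT1G59740 was 273.1 ± 28.8 (SD, n = 3) in col and 192.9 ± 23.2 in T101D. The other lines lay close together, at 160.1 ± 18.8 in chl1-9, 155.6 ± 29.5 in T101A, 155.1 ± 25.0 in chl1-12 and 150.5 ± 10.2 in chl1-5. Only col was separate from its neighbour in this order, and all lines overlapped the next one. The differences from col in chl1-9, T101A, chl1-12 and chl1-5 were -0.72, -0.76, -0.76 and -0.79, each ± 0.14 (SE). In T101D the difference was -0.47 ± 0.14. The mean in T101D was 70.7% of that in col, against 55.1% to 58.6% in the other 4 lines.

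**Figure D1:**
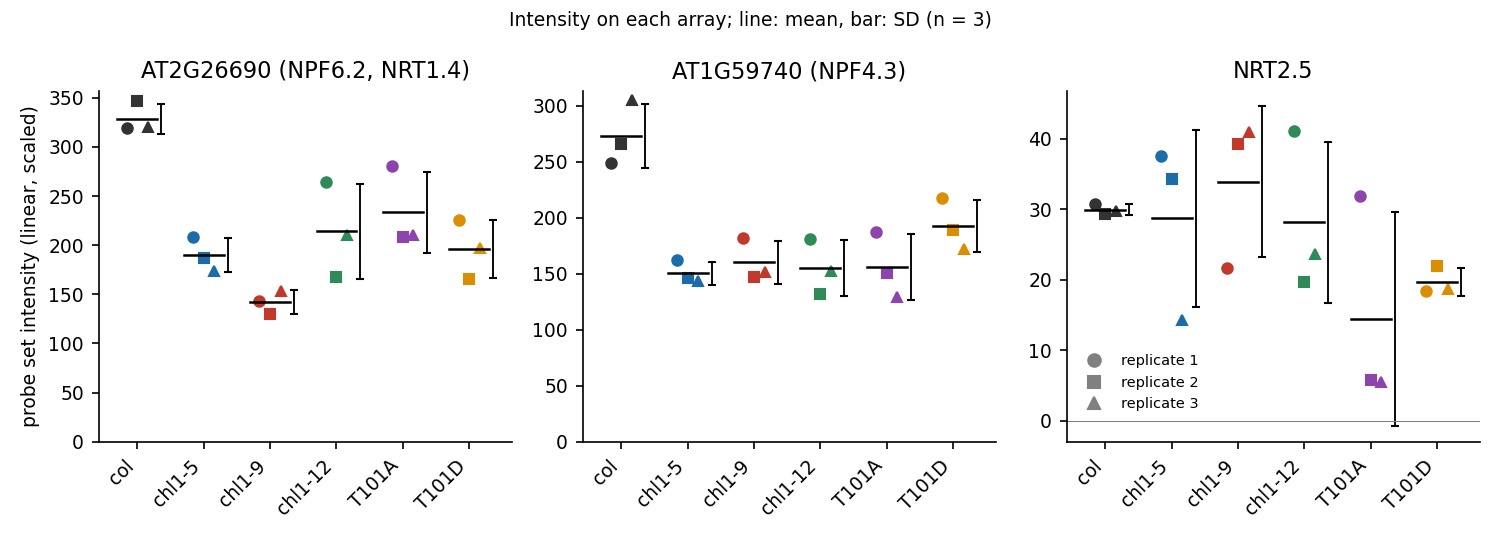
Each panel plots the linear probe set intensity of 1 gene on the 18 arrays, by genotype, with a horizontal line for the mean, a bar for the SD (n = 3) and a marker shape for the replicate number. The 3 col arrays of AT2G26690 (318.8 to 346.6) and of AT1G59740 (248.6 to 304.8) lie above every array of the 5 lines, while NRT2.5 stays between 5.5 and 41.1.

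NRT2.5 was dim on every array. Its intensity lay between 5.5 and 41.1, above only 11.0% to 28.3% of the probe sets of an array, where background makes up much of a value. In col it was 30.8, 29.3 and 29.7. It was 37.5, 34.3 and 14.3 in chl1-5, 21.6, 39.2 and 40.9 in chl1-9, and 41.1, 19.6 and 23.7 in chl1-12. These 3 alleles spread to both sides of col. In T101A it was 31.9, 5.7 and 5.5, so 1 array was at the wild type level and 2 arrays were far under it. In T101D it was 18.4, 22.0 and 18.7, all below col.

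The mean of NRT2.5 was 29.9 ± 0.8 (SD, n = 3) in col, 33.9 ± 10.7 in chl1-9, 28.7 ± 12.5 in chl1-5, 28.1 ± 11.4 in chl1-12, 19.7 ± 2.0 in T101D and 14.4 ± 15.2 in T101A. Except for col against T101D, the groups overlapped. The differences from col were 0.10 in chl1-9, -0.08 in chl1-5, -0.09 in chl1-12, -0.36 in T101D and -0.71 in T101A, each ± 0.29 (SE). The value in T101A turned on single arrays, at -1.09 without its replicate 1. The added 16 shrinks differences of so dim a probe set, and at this level a low transcript and none are hard to tell apart.

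**Figure D2:**
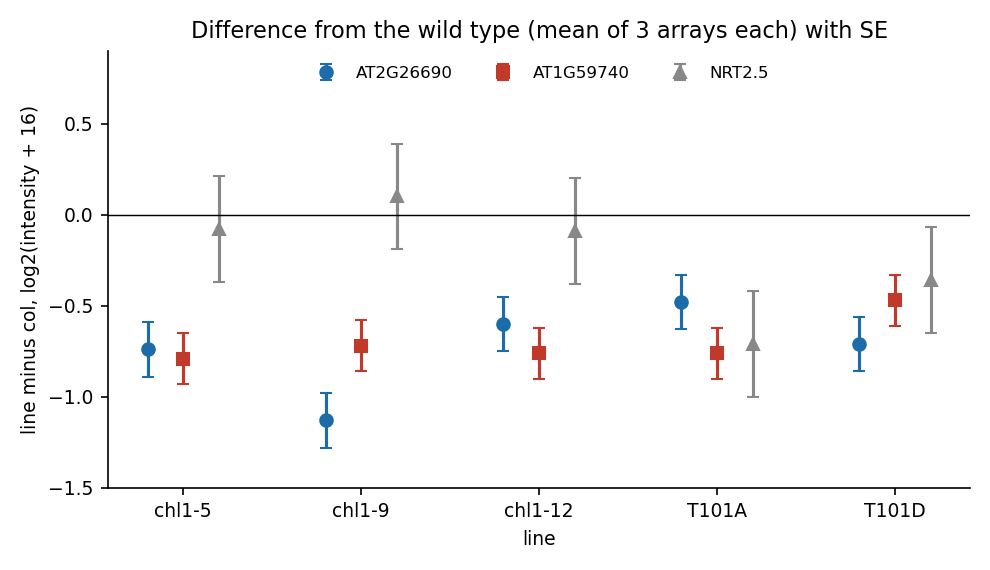
Points give the difference of each line from col on the scale log2(intensity + 16) for the 3 genes, and bars give the standard error from limma. AT2G26690 and AT1G59740 lie below 0 in all 5 lines, from -0.47 to -1.13, and NRT2.5 lies between -0.71 and 0.10 with wider bars.

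Since these comparisons chose the genes, their counts are a description. Past the threshold were 2 of the 3 genes in chl1-5, where 2.18% of all probe sets passed, and 2 in chl1-9, where 3.39% did. It was 1 in chl1-12, with 1.5% of all probe sets, 1 in T101A, with 2.23%, and 0 in T101D, with 0.255%. All 3 arrays of a line lay below all 3 of col in 5 of 5 lines for AT2G26690, in 5 of 5 for AT1G59740 and in 1 of 5 for NRT2.5. Among all probe sets such a separation downwards was seen for 12.5% (chl1-5), 9.08% (chl1-9), 10.1% (chl1-12), 12.0% (T101A) and 9.63% (T101D). It was seen in all 5 lines for 228 probe sets, 1.0% of those tested. All 5 comparisons share the same 3 col arrays, so they are not independent of each other. In RNA of whole roots, fewer cells of a type and less transcript per cell cannot be told apart.

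Lines were also compared with each other in 5 comparisons. Which earlier value led to the choice of each gene is not recorded, least of all for NRT2.5, and these comparisons use the same mutant arrays, so their p-values may not be independent of that choice. None of the 15 tests for the 3 genes passed limma's adjusted threshold, and 4 had an unadjusted p under 0.05, as did 5.13% to 15.2% of all probe sets in these comparisons. Over all probe sets, 0.176% passed for chl1-9 against chl1-12, 0.611% for T101A against chl1-9, 1.78% for T101D against chl1-9, 0.044% for T101A against chl1-12 and 0.185% for T101D against chl1-12.

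AT2G26690 had 3 of these 4 values, each with chl1-9 as the lower group and no overlap of arrays. Such a separation in the same direction was seen for 6.15% of all probe sets between chl1-9 and chl1-12, 7.6% between T101A and chl1-9 and 7.7% between T101D and chl1-9. T101A exceeded chl1-9 by 0.65 ± 0.15 (log2, SE), with a 95% interval from 0.32 to 0.97 and a limma adjusted p of 0.0745. Over the alternatives run, this adjusted p ranged from 0.0224 to 0.268. For chl1-9 against chl1-12 the difference was -0.52, with an interval from -0.85 to -0.20 and a limma adjusted p of 0.22. T101D exceeded chl1-9 by 0.42, with an interval from 0.09 to 0.74 and a limma adjusted p of 0.201. Between chl1-12 and the T101A and T101D forms, AT2G26690 differed by 0.12 (T101A higher, interval -0.20 to 0.45) and -0.11 (T101D lower, interval -0.43 to 0.22).

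For AT1G59740 the intervals of all 5 differences between lines included 0. T101D stood above chl1-12 by 0.29 ± 0.14 (log2, SE), with an interval from -0.01 to 0.59 and a limma adjusted p of 0.716, and above chl1-9 by 0.25 with an interval from -0.05 to 0.55. The other 3 differences lay between -0.05 and 0.05, and their intervals stayed within -0.35 and 0.35. For NRT2.5, T101A was 0.80 below chl1-9 on the log2 scale (-0.80 ± 0.29, SE), with an interval from -1.42 to -0.18 and the arrays overlapped. This difference was -1.58 with an offset of 1 and -0.33 with an offset of 64 in place of 16. The other NRT2.5 intervals, the widest of the 3 genes, ran from -1.24 to 0.80.

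The lines were set beside chl1-5 as a description only, since such values were part of the earlier results. Relative to chl1-5, AT2G26690 was lowest in chl1-9 (-0.38), and its differences were 0.14 (chl1-12), 0.27 (T101A) and 0.04 (T101D). AT1G59740 was at 0.08, 0.03, 0.03 and 0.32 in the same lines. T101A minus T101D was 0.23 for AT2G26690 and -0.29 for AT1G59740, so the lines that stood nearest to the wild type were not the same for both genes. The T101A and T101D arrays overlapped for each of them.

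The values of the 3 genes were set against each other over the arrays. Over the 18 arrays Pearson's r between AT2G26690 and AT1G59740 was 0.73, and it was also 0.73 after each genotype's mean had been taken out. With NRT2.5 the r values were 0.10 and 0.30 over the arrays, and 0.65 and 0.49 with genotype means removed. AT3G45710, an NPF gene with the opposite differences from col, was like them within genotypes. With genotype means removed its r was 0.74 with AT2G26690, 0.60 with AT1G59740 and 0.59 with NRT2.5, so this likeness was not particular to the 3 genes. These arrays share genotypes and hybridisations, and the correlations describe them only. The arrays labelled replicate 1 were the highest of the 3 in 4 of 5 lines for AT2G26690 and in 5 of 5 for AT1G59740. Replicate 1 was highest in at least 4 lines for 9.36% of all probe sets and in all 5 lines for 2.54%. Green shoot marker RCA had an r of 0.27 with AT2G26690 and 0.11 with AT1G59740 over the 18 arrays.

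**Figure D3:**
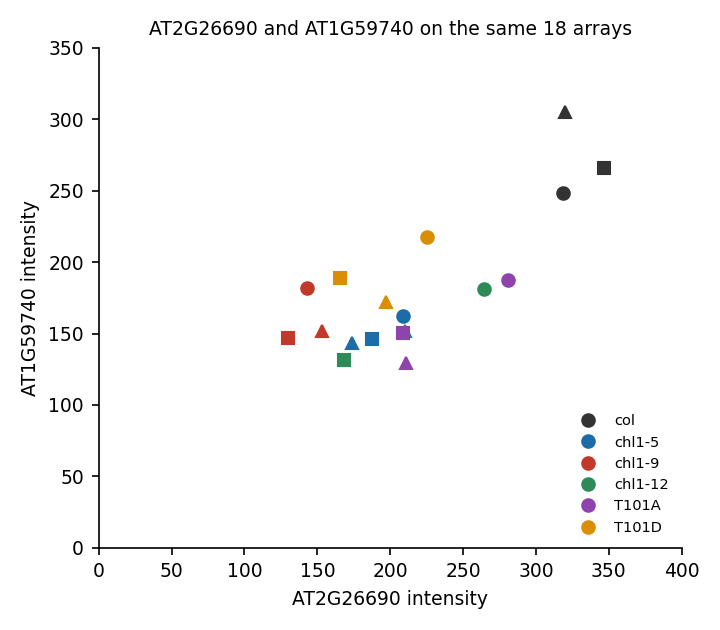
Each point is 1 of 18 arrays, with AT2G26690 intensity on the horizontal axis and AT1G59740 intensity on the vertical axis, coloured by genotype, and circles, squares and triangles for replicates 1, 2 and 3. The col arrays lie at the upper right, and the replicate 1 arrays of chl1-12, T101A and T101D lie toward the upper right of their own genotypes.

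The genes whose log2 values followed each member most closely over the 18 arrays were taken from 7516 named probe sets with a mean intensity above 100. For AT2G26690 they were AT1G23340 (r = 0.881), AT5G67340 (0.844), AT1G53560 (0.821), AT2G41190 (0.803) and AT4G33550 (0.799). With genotype means removed, the r was 0.799 for AT1G23340 and 0.002 for AT2G41190, so the latter matched between genotypes but not within them. For AT1G59740 they were MCCB, which encodes a subunit of 3-methylcrotonyl-CoA carboxylase (0.894), AT4G39675 (0.864), AT1G36640 (0.847), AT2G38870 (0.817) and AT5G35940 (0.816). With genotype means removed, MCCB kept an r of 0.71 and AT5G35940 had -0.057. For NRT2.5 the highest were AT4G33640 (0.789), AT2G35730 (0.767), AT5G46420 (0.756), AT1G72740 (0.693) and NTRC, a plastid thioredoxin reductase gene (0.69). The 5 genes named for AT2G26690 and the 5 for AT1G59740 were all different.

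The rest of the NPF family was followed from a list of 53 loci, of which 34 had a named probe set, 32 beside AT2G26690 and AT1G59740. Most of these 32 genes did not pass in any line. Their mean intensity over 18 arrays ran from 3.43 to 2534, and 11 of them lay under 50. In chl1-5, chl1-9, chl1-12 and T101A, 1 of 32 was higher and 1 of 32 lower, and in T101D 0 of 32 passed with 0.171% of all probe sets called higher and 0.0835% lower there. An unadjusted p under 0.05 in limma was found in T101D for 4 of 32, beside 10.6% of all probe sets. In the 4 lines, 1.35%, 1.75%, 0.941% and 1.52% of all probe sets were called higher and 0.822%, 1.64%, 0.558% and 0.712% lower. The share that 1 of 32 makes is above each of these, but a count of 1 gene is too small to tell it from them. The median difference of the 32 genes was -0.05, 0.10, 0.00, 0.09 and 0.08 in chl1-5, chl1-9, chl1-12, T101A and T101D, beside -0.03 to 0.00 for all probe sets.

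The gene called lower in those 4 lines was AT3G53960. Its intensity was 142.3, 149.0 and 217.8 in col, 49.7, 91.0 and 82.3 in chl1-5, and 61.5, 53.5 and 41.7 in T101A. It was 69.9, 66.4 and 70.0 in chl1-9, 64.7, 78.7 and 65.7 in chl1-12, and 153.7, 86.4 and 99.8 in T101D. Only T101D overlapped col. AT3G53960 fell in these lines, with log2 differences from col of -1.05 (chl1-5), -1.11 (chl1-9), -1.10 (chl1-12) and -1.43 (T101A), each with an SE of 0.21, with limma adjusted p of 0.0168, 0.0079, 0.0146 and 0.00211. The call in chl1-5 was lost without chl1-5 replicate 1 (limma adjusted p = 0.0769) or col replicate 3 (0.0723). That in chl1-12 was lost without chl1-12 replicate 1 (0.0664), chl1-12 replicate 3 (0.0589) or col replicate 3 (0.0771). In T101D it was at -0.53, with a limma adjusted p of 0.372. The direct comparisons of T101D with chl1-9 (0.57, limma adjusted p = 0.201) and with chl1-12 (0.56, limma adjusted p = 0.508) did not pass, so a difference between those lines was not shown. AT2G40460 also lay below col on all arrays of all 5 lines, as did 1.0% of all probe sets. It was at -0.30 in chl1-5 and -0.66 in chl1-9. AT2G37900 lay wholly below col in all lines but T101D, at -1.08 in chl1-5 and -1.26 in chl1-12. AT1G72140 went the other way, at 0.51 in chl1-5 and 0.70 in T101A. AT2G40460, AT2G37900 and AT1G72140 passed in no line.

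The gene called higher was AT3G45710. Its intensity was 1738.3, 1949.6 and 1651.2 in col, 2896.8, 2369.3 and 2333.7 in chl1-5, and 3242.9, 2893.3 and 3072.2 in chl1-9. It was 2941.2, 2561.2 and 2408.2 in chl1-12, 3394.6, 2638.8 and 2836.7 in T101A, and 2341.8, 2171.6 and 2168.8 in T101D. All 5 lines lay above col. The share of all probe sets with such a separation upwards was not computed, and the lines share the same col arrays. AT3G45710 rose by 0.50 in chl1-5, 0.78 in chl1-9, 0.56 in chl1-12 and 0.72 in T101A (SE 0.12), with limma adjusted p of 0.0377, 0.00147, 0.0246 and 0.00398. In T101D it was at 0.32, with a limma adjusted p of 0.327. Its call in chl1-5 was lost on leaving out any 1 of the 6 arrays, with limma adjusted p from 0.0536 to 0.166. In chl1-12 it was lost without replicate 1 (0.121) or 2 (0.0708) of that line, or without col replicate 1 (0.0723) or 3 (0.111).

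**Figure D4:**
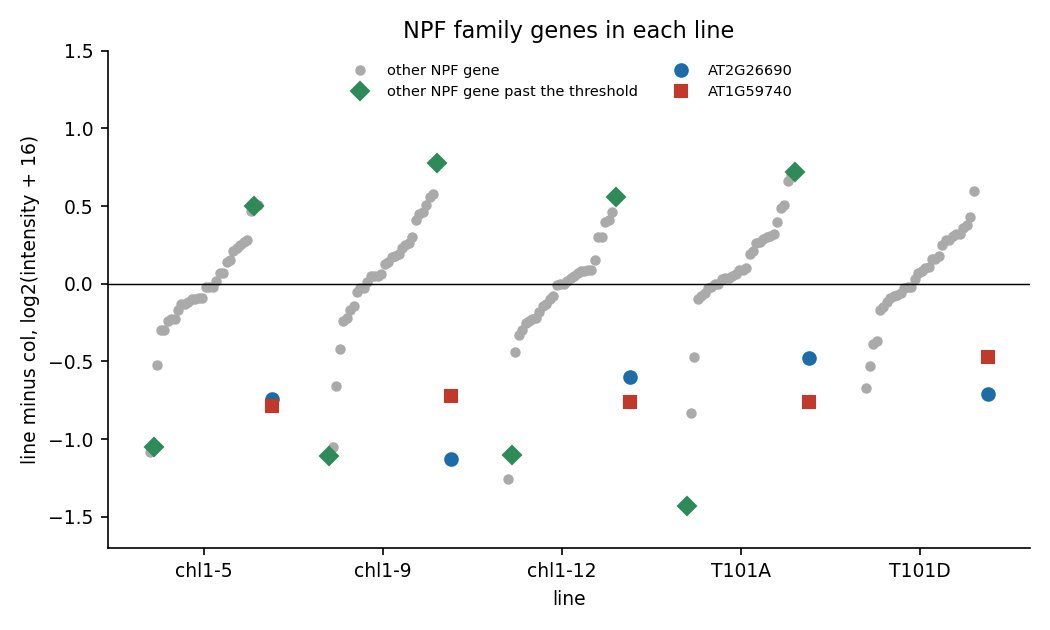
For each line, points give the difference from col on the scale log2(intensity + 16) of the 32 other NPF genes in rising order, with green diamonds for those past the threshold, and AT2G26690 and AT1G59740 at the right of each line. In chl1-5, chl1-9, chl1-12 and T101A the diamonds are AT3G45710 above 0 and AT3G53960 below 0, and in T101D there is none.

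None of the annotated relatives in the subfamilies of the 2 NPF genes passed the threshold in a line. AT3G21670 (NPF6.4), of the same subfamily as AT2G26690, had means of 365.3 ± 16.1 (SD, n = 3) in col, 308.1 ± 39.7 in chl1-9 and 362.6 ± 73.4 in T101A, with differences between -0.24 and 0.02 in the 5 lines and none past the threshold. Of the NPF4 subfamily of AT1G59740, AT1G33440 (NPF4.4) was at -0.30 in chl1-5 and -0.42 in chl1-9 (limma adjusted p = 0.341 and 0.119). AT3G25260 (NPF4.1), AT3G25280 (NPF4.2) and AT1G27040 (NPF4.5) had means between 17.6 and 58.1 and passed in no line. The glucosinolate carriers GTR1 and GTR2 lay between -0.24 and 0.25.

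NRT2.5 was the 1 gene with a named probe set among 9 listed NRT2 and NRT3 loci. None of the 12 anion channel and CLC genes, 6 ammonium transporters or 18 nitrogen assimilation genes listed had one. Of 24 regulators of nitrate transporter genes, 5 had one. Among these, AT3G25790 fell in chl1-5 (-0.76), chl1-9 (-0.57) and chl1-12 (-0.77), and AT1G25550 fell in chl1-5 (-0.47) and chl1-12 (-0.59), with limma adjusted p from 0.0063 to 0.0492. Of all probe sets, 0.822% (chl1-5), 1.64% (chl1-9) and 0.558% (chl1-12) were called lower. The other regulators measured passed in no line. Of those, AT3G60320 went the other way, at 0.44 in chl1-9 and 0.45 in chl1-12 (limma adjusted p = 0.0643 and 0.1). Against chl1-9 and chl1-12, T101D was higher by 0.77 and 0.97 for AT3G25790 and by 0.43 and 0.66 for AT1G25550 (limma adjusted p from 0.011 to 0.0426). In those same comparisons T101D differed by 0.42 and -0.11 for AT2G26690 and by 0.25 and 0.29 for AT1G59740, none past the threshold. Except for that of AT1G25550 in chl1-12, these calls were lost when single arrays were left out. Leaving out any 1 of the 6 arrays ended the call of AT3G25790 in chl1-9, with limma adjusted p from 0.0511 to 0.163. Its call in chl1-5 was lost without col replicate 1 or chl1-5 replicate 3, and that in chl1-12 without col replicate 1 or chl1-12 replicate 2 or 3, with limma adjusted p from 0.0553 to 0.0789. The call of AT1G25550 in chl1-5 was lost without any 1 of the 6 arrays other than chl1-5 replicate 2, with limma adjusted p from 0.0624 to 0.126. For T101D, the call of AT3G25790 against chl1-9 was lost without T101D replicate 1 or chl1-9 replicate 2, and that against chl1-12 without T101D replicate 1 or chl1-12 replicate 2 or 3, with limma adjusted p from 0.0559 to 0.0673. For AT1G25550 the call against chl1-9 was lost without T101D replicate 1 or 3 or chl1-9 replicate 1 or 2 (limma adjusted p from 0.0859 to 0.154), and that against chl1-12 without T101D replicate 1 or chl1-12 replicate 1 or 3 (0.0534 to 0.0566).

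Some measured markers of tissue moved with genotype beside these values. Of the 6 root markers, 5 passed as higher in T101A, 4 in chl1-5, 2 each in chl1-9 and chl1-12, and 1 in T101D. None passed as lower in any line. These 6 need not stand for the other root markers or for the share of root tissue. Among all probe sets, 1.52%, 1.35%, 1.75%, 0.941% and 0.171% were called higher in T101A, chl1-5, chl1-9, chl1-12 and T101D. The root hair expansin EXPA7 passed in no line, and the expansin EXPA18 only in T101A. AT3G49960 passed in every line, and AT5G04960 in all but T101D. AT4G26010 and AT3G54580 passed in chl1-5 and T101A. Of the 2 green shoot markers, SBPASE was lower in T101D (-1.30, limma adjusted p = 0.0428), and RCA was at -1.11 there without passing. The part of these shifts in the values of AT2G26690, AT1G59740 and NRT2.5 was not tested. The measured genes next to the 3 members in locus order, 2 on each side, gave 60 tests against col. Their differences lay between -0.49 and 0.48. Of these tests 0 passed in limma, beside 0.255% to 3.39% of all probe sets in the lines. With so low a background, 0 of 60 does not show that these genes were unchanged. An unadjusted p under 0.05 in limma was found for 2 of 60, beside 10.6% or more of all probe sets in each line.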

How the data were processed

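RNA of roots was labelled with a 3′ IVT kit and hybridised to Affymetrix ATH1 arrays, per the labels' protocols. The authors deposited 1 table of linear intensity values, in which the mean without the top and bottom 2% of probe sets was 500 on every array. The software behind the intensity values is not given in the sources used here. Of 22810 probe sets, 64 controls were left out, and no dim probe set was removed. Genes were named through the platform annotation (13513 probe sets with 1 gene, 503 with several, 8730 with none) and RefSeq (13436 matched). The members and the gene lists were chosen with earlier results of these data known.

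Values were taken as log2(intensity + 16) and fitted in limma 3.58.1 (R 4.3.3) with 1 mean per genotype over 18 arrays, and p-values were adjusted by Benjamini and Hochberg within each comparison. The fit was tested on simulated data for chl1-9 against col. Of changes of 0.5, 1 and 2 on the log2 scale, 26.9%, 73.1% and 100% passed in the right direction. Most changes of 0.5 were therefore missed there. Genes beside the members were named where they passed, were annotated relatives, or were the 5 most correlated per member. The markers RCA and EXPA7, the NPF genes GTR1, GTR2, AT2G40460, AT2G37900 and AT1G72140 and the regulator AT3G60320 were also named, though they did not pass. Not every measured NPF gene was named. Nothing says that replicates were separate cultures, so p-values measure the spread between arrays, which may be technical. The number of arrays limits the precision. The alternatives were other offsets, quantile or median scaling, filters on dim probe sets, array weights, an intensity trend, 6 arrays only, a replicate block and leaving out each array. No sequence is printed.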

Additional observations from a re-analysis of the deposited data

How the results depend on the processing

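The differences of AT2G26690 and AT1G59740 from col kept their sign in all lines under every alternative that gave a value, and those of NRT2.5 changed sign in 1 alternative each in chl1-5, chl1-9 and chl1-12. With an offset of 64, AT2G26690 was at -0.63 in chl1-5 and -0.93 in chl1-9, AT1G59740 at -0.65 in chl1-5 and NRT2.5 at -0.17 in T101D. With an offset of 1, NRT2.5 was at -1.46 in T101A and -0.58 in T101D. Leaving out single arrays, NRT2.5 in T101A ranged from -1.09 to -0.51, AT2G26690 in chl1-9 from -1.18 to -1.07 and AT1G59740 in T101D from -0.55 to -0.39. AT1G59740 gave no value among probe sets above the median level, and NRT2.5 none under either filter on dim probe sets.

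The excess of T101A over chl1-9 in AT2G26690 (0.65) passed in limma above the median level (adjusted p = 0.0224), above the lowest quartile (0.0464), where fewer probe sets were tested, and with the replicate block (0.0303). Deviations of same-numbered arrays correlated by 0.01 to 0.137, all 30 above 0, and in no comparison were all pairs over 0.1. The labels give no shared batch for a number. Over the 10 comparisons, an array correlated best with the array of its own number in 50 of 60 cases. The same arrays recur in several comparisons, so these cases are not independent of each other. They are a hint from the data and not from the design. Whether a number marks a shared batch was not tested. With the replicate block 676, 1066, 496, 879 and 91 probe sets passed against col in chl1-5, chl1-9, chl1-12, T101A and T101D, beside 495, 772, 341, 508 and 58 without it, and the count rose in 9 of 10 comparisons. Over all alternatives these counts ran from 135 to 867, 160 to 1066, 95 to 536, 45 to 879 and 4 to 154, lowest with only the 6 arrays compared. Between lines, 40 probe sets passed for chl1-9 against chl1-12 (12 to 99), 139 for T101A against chl1-9 (12 to 352), 404 for T101D against chl1-9 (38 to 633), 10 for T101A against chl1-12 (5 to 12) and 42 for T101D against chl1-12 (16 to 78). Centring on array medians raised the share of higher calls to 62.1% in chl1-9, 78.8% in T101A and 81.0% in T101D, from 51.7%, 68.1% and 67.2%. With the 6 arrays alone, the calls of AT3G53960, AT3G45710, AT3G25790 and AT1G25550 were lost in each comparison except that of AT3G45710 in chl1-9. That of AT3G25790 in chl1-9 was also lost with an offset of 1 (limma adjusted p = 0.0611), quantile scaling (0.0618), median centring (0.051) and array weights (0.0535), and that of AT1G25550 in T101D against chl1-9 with array weights (0.0778). The cause of these changes was not tested. With 3 arrays a genotype, small differences between lines could not be told from the spread, and the signal of NRT2.5 was close to background.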
